A study of Homo sapiens with 4 samples.

Results

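The genes described here are the 5 subunits of the transcription factor NF-κB (NFKB1, NFKB2, RELA, RELB and REL) and 5 genes that NF-κB itself induces and that act back on its signal (NFKBIA, NFKBIE, NFKBIZ, TNFAIP3 and BIRC3). They were chosen by name, and every probe whose accession maps to one of these symbols was taken. The 10 genes have 11 probes, out of 25121 genes and 58196 probes on the array. RELA has 2 probes and every other gene has 1. Each of the 11 probes was well above background on all 4 arrays, so none of the 10 genes was lost to a filter on dim spots.

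PC3 and DU145 are established human prostate cancer cell lines that grow without androgen. In each line, cells that carried an shRNA against luciferase (PC3-shC and DU145-shC) were compared with cells that carried an shRNA against ESS2 (PC3-shESS2 and DU145-shESS2). Total RNA from each of the 4 conditions was hybridized to 1 one-colour (Cy3) Agilent array. The labels describe lentiviral transduction in both lines, whereas the methods of the study describe stable plasmid transfection with puromycin selection for PC3. The series text calls the control shRNA non-targeting. The paper does not describe the DU145 arrays, and whether their shRNA and protocol were those of PC3 is not given in the sources used here. Every group carried a vector with an shRNA, and cells without a vector were not analysed here. All cells were kept in the same serum-containing medium, and no cytokine is listed for any group. Whether a line was 1 clone or a pool, and whether a second shRNA was used, is not given in the sources used here. The study set out to find what ESS2, a nuclear protein that it links to chromatin remodelling, does in prostate cancer. NF-κB target genes were among the genes it examined. The comparison here asks whether the genes that encode NF-κB and the genes of its feedback moved together.

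NF-κB works as dimers of its subunits, which inhibitor proteins of the IκB family hold in the cytoplasm until a receptor signal leads to their degradation. The freed dimers enter the nucleus and switch on inflammatory and survival genes. Among the genes they switch on are their own inhibitors and the enzymes that shut the receptor signal off, so that the response limits itself. The mRNA of these feedback genes is therefore widely read beside that of the subunits. Arrays measure mRNA only, not the protein, its location or its binding to DNA, and in bulk RNA a change in all cells cannot be told apart from a change in some of them.

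Promoter sequences are shown first because NF-κB is known to act on feedback genes through such sites. The letters searched were GGGNNNTTCC, a core of the NF-κB consensus, on both strands of the 300 bases that run from 250 before to 50 after each annotated start (RefSeq, GRCh38.p14). A promoter entry was given for 8 of the 10 genes, all but RELB and NFKBIE. These letters occur in 7 of the 8, all but RELA, and in 8 of their 13 entries. Over all promoters of that length, 2289 of 35116 hold them (6.52%), and so do 2139 of 27305 genes (7.83%). The windows below run 5′ to 3′ on the strand of the gene with the matched letters in capitals, and are those of the 4 feedback genes with an entry and of 2 subunits. A match on the other strand reads GGAANNNCCC.
NFKBIA: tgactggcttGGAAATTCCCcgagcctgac
NFKBIZ: tttttggtctGGGAATTTCCagtgtgcaga
TNFAIP3: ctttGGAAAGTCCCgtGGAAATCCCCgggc
BIRC3: tttgggtcatGGAAATCCCCgagtgggttt
NFKB1: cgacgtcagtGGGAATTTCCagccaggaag
REL: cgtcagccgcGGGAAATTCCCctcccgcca

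The NFKBIA window lies on the minus strand at chr14:35404811-35404840, and its matched letters begin 81 bases before the start of the gene. The other windows lie on the plus strand. That of NFKBIZ is at chr3:101827757-101827786, with the letters beginning 223 bases before the start. The TNFAIP3 window, at chr6:137867188-137867217, holds 2 matches, which begin 67 and 55 bases before the start. The BIRC3 window is at chr11:102317275-102317304, with the letters beginning 199 bases before the start. The windows of NFKB1 (chr4:102501300-102501329) and REL (chr2:60881517-60881546) have their letters 49 and 47 bases before the start, and REL holds 2 matches that overlap, 1 on each strand. NFKB2 has 3 further matches in 2 of its 3 entries. Read in the direction of the motif, the same letters GGGAATTTCC are found in NFKB1, REL, NFKBIA and NFKBIZ and in 51 of all 35116 promoters. GGGGATTTCC is shared by TNFAIP3 and BIRC3 and found in 39 promoters, and GGGACTTTCC by TNFAIP3 and NFKB2 and found in 67. A match describes the letters of this window and is not a measurement of binding.

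Levels are given as scaled signal, the background-subtracted signal of a probe divided by the 75th percentile of its array, so that 1 stands for that percentile. Levels can be compared between arrays for 1 probe, and not between probes. The log2 ratio is that of shESS2 over shC cells, and a gene is counted as past 2-fold where it lies beyond 1 or −1. Since each condition has 1 array, a difference within a line has no replicate check and no test was made on it. The only error that could be measured within an array was that between spots of 1 probe. From the probes spotted 10 times, the SD of a log2 ratio taken from single spots had a median of 0.079 over 286 probes in PC3 and 0.079 over 283 probes in DU145. Among those with a scaled signal under 1 it was 0.15 over 12 probes and 0.21 over 13 probes, and the largest was 0.32 and 0.31. This spread covers neither the culture nor the hybridization.

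The 75th percentile of the signal lay between 212 and 290 on the 4 arrays, the share of spots well above background between 50.8% and 52.6%, and no spot was saturated. ESS2 had a scaled signal of 0.506 in PC3-shC and 0.185 in PC3-shESS2 cells, 2.74-fold lower, and of 0.404 in DU145-shC and 0.0794 in DU145-shESS2 cells, 5.09-fold lower. The lines matched their labels at CTNNA1, a gene that PC3 cells have lost. It was not well above background on the PC3 arrays and was at 20.4 and 22.1 on the DU145 arrays. All 5 epithelial markers were well above background on all 4 arrays, although EPCAM was 6.11-fold lower in DU145-shESS2 than in DU145-shC cells, whereas the luminal marker KLK3 was on none. Of 16 markers of leukocytes, fibroblasts and endothelium, 14 were matched, and CD3E, CD2, MS4A1, COL1A2, COL3A1 and KDR were well above background on no array. PTPRC (between 0.128 and 0.227), COL1A1 (between 0.346 and 1.01), PDGFRB, VWF, CDH5 and CD14 were so on all 4 arrays and PECAM1 on both PC3 arrays. The 2 past 2-fold between conditions were PECAM1, at 1.29 in PC3-shC and 0.0566 in PC3-shESS2 cells, and CD14, at 0.840 and 0.189 in PC3 and at 0.811 and 1.26 in DU145. The part of these markers in the results was not tested.

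**Figure D1:**
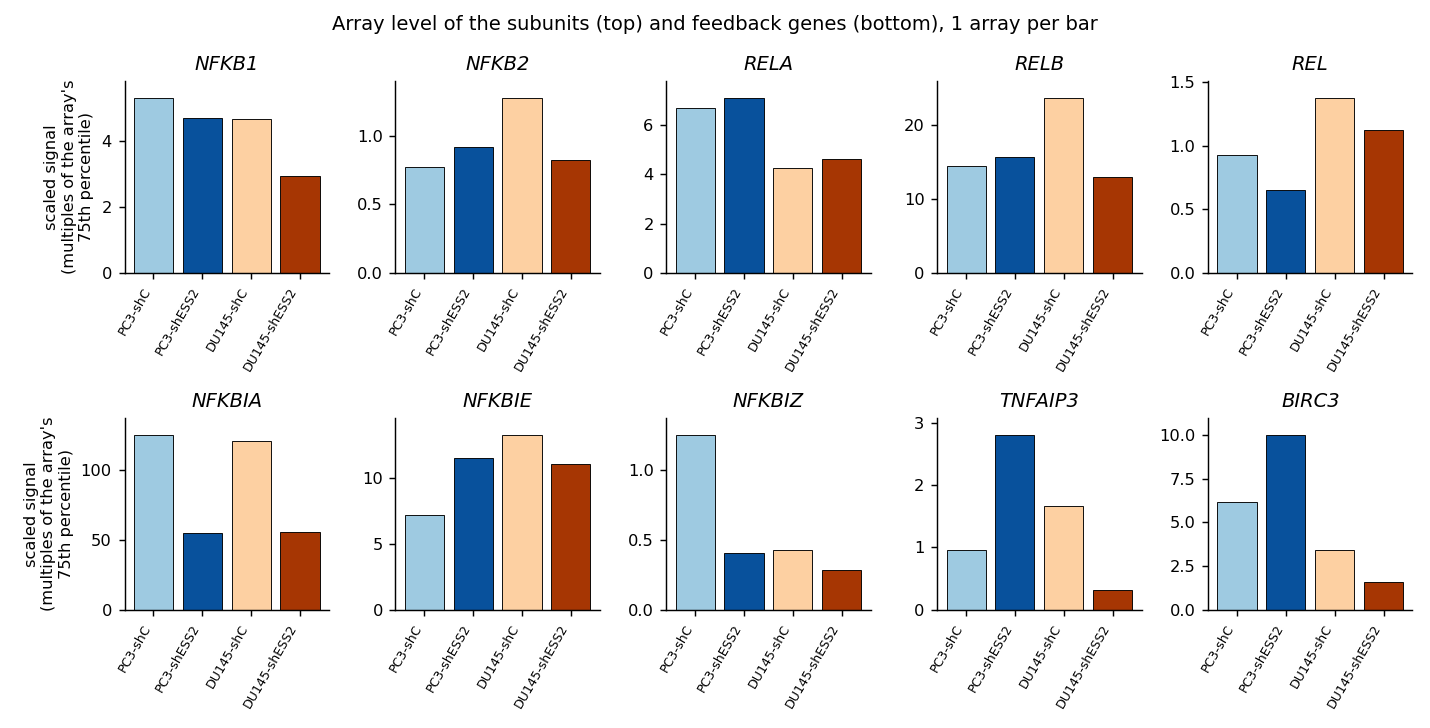
Scaled signal (multiples of the 75th percentile of the array, linear axes from 0, each gene on its own scale) of the 5 subunits in the top row and the 5 feedback genes in the bottom row. Each bar is 1 array, so there are no error bars. NFKBIA was lower in both knockdown lines, at 54.4 and 55.3 against 124.5 and 120.3, and TNFAIP3 was higher with knockdown in PC3 (2.80 against 0.958) and lower in DU145 (0.318 against 1.66).

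The subunits differed by less than 2-fold in both lines. RELA, which encodes p65, the main activating subunit of the canonical pathway, had a scaled signal of 6.69 in PC3-shC, 7.07 in PC3-shESS2, 4.26 in DU145-shC and 4.63 in DU145-shESS2 cells by its brighter probe. The log2 ratios were 0.079 in PC3 and 0.12 in DU145, the smallest of the 10 genes in each line. The second probe of RELA was at 2.48, 2.41, 1.44 and 1.63 on the same arrays, with ratios of −0.038 and 0.18. The probes differ in sign in PC3, where both ratios lie within the spread between spots. RELA in PC3 was also the only one of the 10 genes to change sign with the scaling, at −0.024 with the arrays scaled to their medians.

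NFKB1 encodes the precursor of p50, the partner of p65. Its scaled signal was 5.29 in PC3-shC and 4.69 in PC3-shESS2 cells, and 4.67 in DU145-shC and 2.95 in DU145-shESS2 cells. It was lower with knockdown in both lines, by 1.13-fold in PC3 (log2 ratio −0.17) and by 1.58-fold in DU145 (−0.66). The PC3 ratio was −0.082 with the authors' scaled values, within the largest spread between spots at this level (0.15), so its direction there is uncertain. REL, a subunit best known from lymphocytes, was at 0.928, 0.652, 1.37 and 1.12 in PC3-shC, PC3-shESS2, DU145-shC and DU145-shESS2 cells. It was also lower in both lines, 1.42-fold in PC3 (−0.51) and 1.22-fold in DU145 (−0.29).

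NFKB2 and RELB encode the subunits of the non-canonical pathway, and both lay in opposite directions in the 2 lines. NFKB2 was at 0.776 in PC3-shC and 0.921 in PC3-shESS2 cells, a log2 ratio of 0.25 that lies within the largest spread between spots at this level. In DU145 it was at 1.27 with shC and 0.826 with shESS2, 1.54-fold lower (−0.63). RELB was at 14.5 and 15.7 in PC3 (0.12), and at 23.6 and 13.0 in DU145, 1.82-fold lower (−0.86). The RELB ratio in DU145 was the largest of any subunit in either line. Over the 5 subunits the median log2 ratio was 0.079 in PC3, with 2 lower and 3 higher, and −0.63 in DU145, with 4 lower and 1 higher. The median over all genes compared was −0.055 in PC3 and −0.022 in DU145.

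NFKBIA encodes IκBα, the inhibitor that is degraded first when NF-κB is activated and is rebuilt by NF-κB itself. It is the only one of the 10 genes with a probe spotted 10 times on each array, and 8 of these spots were kept after outliers were left out. Its scaled signal was 124.5 in PC3-shC and 54.4 in PC3-shESS2 cells, and 120.3 in DU145-shC and 55.3 in DU145-shESS2 cells. With this scaling the control levels of the lines lay close together, as did the knockdown levels, but with the authors' scaled values NFKBIA was lower in PC3 than in DU145 by a log2 difference of −0.40 in control and −0.40 in knockdown cells. The single spots kept ran from 119 to 132 in PC3-shC and from 52.1 to 55.9 in PC3-shESS2 cells. They ran from 114.6 to 125 in DU145-shC and from 54.1 to 56.9 in DU145-shESS2 cells. Spots of the control and knockdown arrays did not overlap in either line, but spots of 1 array share their RNA and their hybridization. How many other probes spotted 10 times separate in this way was not counted. The log2 ratio was −1.20 in PC3, 2.29-fold lower, and −1.12 in DU145, 2.17-fold lower, against an SD between spots of at most 0.046 on any array. The ratio in PC3 minus that in DU145 was −0.075. In DU145 the ratio was −0.98 with quantile normalization, just short of 2-fold.

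**Figure D2:**
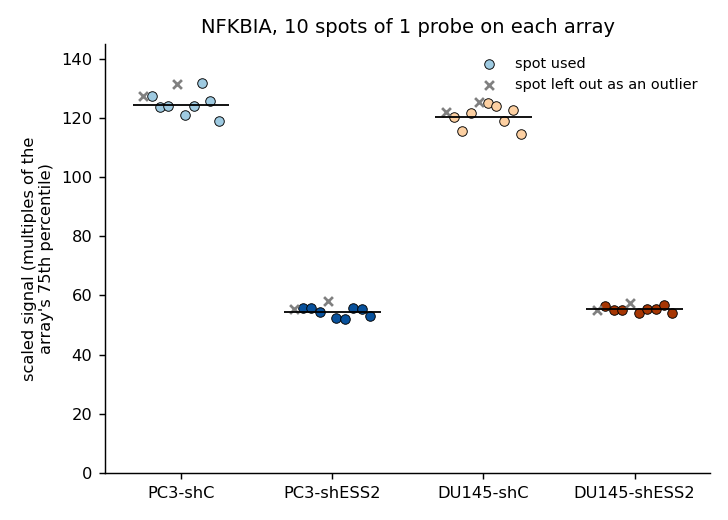
Scaled signal (multiples of the 75th percentile of the array) of each of the 10 spots of the NFKBIA probe on the 4 arrays. Circles are spots used, crosses are spots left out as outliers, and the line is the mean on the log2 scale of those used; spots of 1 array share their RNA and their hybridization. Those of PC3-shC and DU145-shC lie at 114.6 or above, and those of PC3-shESS2 and DU145-shESS2 at 58.3 or below.

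NFKBIZ encodes IκBζ, an inducible nuclear member of the IκB family that acts with p50 at secondary response genes. It was at 1.25 in PC3-shC and 0.407 in PC3-shESS2 cells, 3.07-fold lower (log2 ratio −1.62), the ratio furthest below 0 of the 10 genes in PC3. In DU145 it was at 0.429 with shC and 0.287 with shESS2, 1.50-fold lower (−0.58). The 3 lower values lie close together, and PC3-shC stands above them. In the control cells NFKBIZ was 2.91-fold higher in PC3 than in DU145. With normexp background correction, which draws dim spots together, the ratio was −1.16 in PC3 and −0.32 in DU145.

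TNFAIP3 encodes A20, a ubiquitin-editing enzyme that switches off signalling from the TNF receptor. Its scaled signal was 0.958 in PC3-shC and 2.80 in PC3-shESS2 cells, 2.92-fold higher (log2 ratio 1.55). In DU145 it was 1.66 with shC and 0.318 with shESS2, 5.22-fold lower (−2.38). The knockdown arrays thus hold both the highest and the lowest of its 4 levels, with the control arrays between them. Of 16842 genes compared in DU145, 54 had a ratio at least as large as that of TNFAIP3 in either direction, and in PC3 this was 483 of 16764, TNFAIP3 included in each count. The ratio lay between 1.36 and 1.64 in PC3 and between −2.52 and −1.76 in DU145 under the 9 other settings tried. TNFAIP3 has 1 probe with 1 spot per array.

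BIRC3 encodes cIAP2, a ubiquitin ligase that carries the TNF signal to NF-κB and restrains the non-canonical pathway. It was at 6.20 in PC3-shC and 10.0 in PC3-shESS2 cells, 1.61-fold higher (log2 ratio 0.69), and at 3.42 in DU145-shC and 1.58 in DU145-shESS2 cells, 2.16-fold lower (−1.11). The ratio in DU145 was −0.94 with normexp background correction. NFKBIE encodes IκBε, a slower feedback inhibitor. It was at 7.19 in PC3-shC and 11.4 in PC3-shESS2 cells, 1.59-fold higher (0.67), and at 13.2 in DU145-shC and 11.1 in DU145-shESS2 cells, 1.19-fold lower (−0.26). Both genes took the same directions as TNFAIP3 in each line, at smaller sizes.

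In PC3, 3 of the 10 genes lay past 2-fold, beside 7.75% of all genes compared (1299 of 16764). These were NFKBIA and NFKBIZ, 2 lower beside 3.87% of all genes, and TNFAIP3, 1 higher beside 3.88%. The split of all genes between lower and higher moved with the scaling in PC3, from 649 and 650 to 803 and 511 under median scaling and to 535 and 792 with the authors' scaled values, while the split of the members did not. In DU145 3 of the 10 lay past 2-fold, NFKBIA, TNFAIP3 and BIRC3, beside 4.83% of all genes (813 of 16842). All 3 were lower, beside 2.47% of all genes lower and 2.36% higher past 2-fold. All of those past 2-fold were feedback genes and none was a subunit. The 10 genes were chosen with earlier results of these arrays known, so their count is a description.

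The feedback genes were spread over a wider range than the subunits. In PC3 their log2 ratios ran from −1.62 to 1.55, against −0.51 to 0.25 for the subunits. With 2 feedback genes lower and 3 higher, their median of 0.67 describes neither side, and it lay 0.59 above that of the subunits. In DU145 all 5 feedback genes were lower, from −2.38 to −0.26, with a median of −1.11, while the subunits ran from −0.86 to 0.12. The feedback median there lay below that of the subunits, by −0.49, which was −0.32 with quantile normalization. Members of a group share their arrays and are not replicates of one another.

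**Figure D3:**
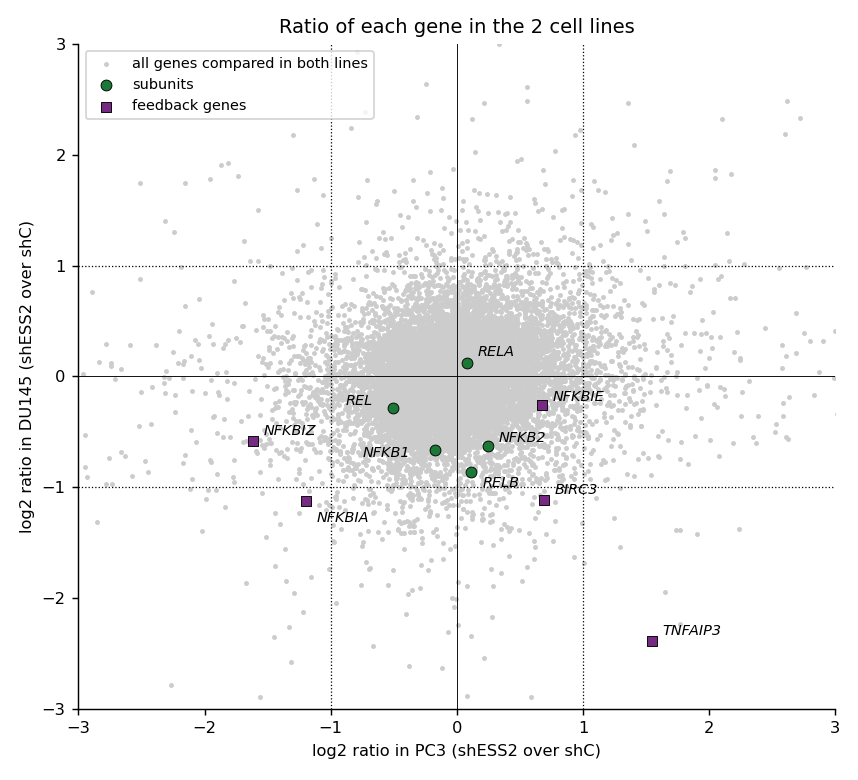
Log2 ratio of shESS2 over shC in PC3 (horizontal axis) and DU145 (vertical axis) for the 15478 genes compared in both lines (grey points; 59 lie outside the axes), the 5 subunits (green circles) and the 5 feedback genes (purple squares). Dotted lines mark 2-fold. NFKBIA and NFKBIZ lie to the lower left, TNFAIP3 at 1.55 and −2.38 to the lower right, and the subunits near the centre or below it.

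Set side by side, the ratios of the 2 lines differed most for TNFAIP3. Its ratio in PC3 exceeded that in DU145 by 3.93 on the log2 scale, and a difference at least as large in either direction was found in 29 of the 15478 genes compared in both lines, TNFAIP3 included. The difference was 1.80 for BIRC3, reached or passed by 338 genes, and −1.04 for NFKBIZ. As reported, these 3 feedback genes were the members whose ratios differed by more than 2-fold between the lines, beside 9.61% of all genes. The set changed with the processing. NFKBIZ fell under this limit with the authors' scaled values, quantile normalization and normexp. RELB, a subunit, passed it with the authors' scaled values and with quantile normalization. The differences of NFKBIE (0.93), RELB (0.98) and NFKB2 (0.87) were just under this limit, that of NFKB1 was 0.49, and those of REL (−0.22), NFKBIA (−0.075) and RELA (−0.041) were smaller. With 1 array per condition, none of these differences could be tested.

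TNFAIP3 was the only one of the 10 genes past 2-fold higher in PC3 and past 2-fold lower in DU145, a pattern found in 13 of 15478 genes (0.084%). NFKBIA was the only one past 2-fold lower in both lines, as were 39 genes (0.252%). By direction alone, 4 of the 10 genes were lower in both lines (NFKB1, REL, NFKBIA and NFKBIZ), beside 33.3% of all genes. RELA was higher in both, beside 23.7%. The 5 others lay in opposite directions, beside 43% of all genes, so this count is near the overall share. Those 5, NFKB2, RELB, NFKBIE, TNFAIP3 and BIRC3, were all higher in PC3 and lower in DU145, as were 19.7% of all genes.

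To ask which genes moved alike in both lines, a limma model with a term for the line was run on the 4 arrays together, so that the lines stand in for replicates and 1 residual degree of freedom remains. NFKBIA had a mean log2 ratio of −1.16 with a standard error of 0.18 (limma adjusted p = 0.746), lower in 2 of 2 lines. NFKBIZ had a mean of −1.10 with a standard error of 0.32 (limma adjusted p = 0.746), also lower in 2 of 2 lines. For TNFAIP3 the mean was −0.42 with a standard error of 1.02 (limma adjusted p = 0.918), as the lines went opposite ways. By limma, 0 of the 10 genes and 0 of all 17126 genes passed an adjusted p of 0.05 (0%), and 2 of the 10 and 1047 of all genes (6.11%) had an unadjusted p under 0.05. ESS2 itself, at a mean of −1.90 with a standard error of 0.29, had a limma adjusted p of 0.746. The adjusted p of the other 7 genes lay between 0.746 and 0.914 by limma.

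In the control cells, where ESS2 was not targeted, 9 of the 10 genes were within 2-fold of each other between the lines. NFKBIZ was the only one past 2-fold between PC3-shC and DU145-shC, beside 42% of all genes. NFKBIA had a log2 difference of 0.050 (PC3-shC over DU145-shC). BIRC3 (0.86), RELA (0.65) and NFKB1 (0.18) were higher in PC3-shC cells, and NFKBIE (−0.88), TNFAIP3 (−0.79), NFKB2 (−0.72), RELB (−0.71) and REL (−0.57) were higher in DU145-shC cells. These differences depended on the scaling. With the authors' scaled values 6 members were past 2-fold, and NFKBIA (−0.40) and NFKB1 (−0.27) changed sign, as they did with quantile normalization (−0.38 and −0.15). The lines were run on different slides with different software versions, so that line and run cannot be told apart.

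The genes that carry the signal to NF-κB were taken from lists that follow their textbook roles. Of 6 further IκB family genes, 1 was past 2-fold in PC3. This was NFKBID, an atypical nuclear IκB, at 0.357 in PC3-shC and 0.132 in PC3-shESS2 cells (log2 ratio −1.43). None was past 2-fold in DU145, where NFKBID had a ratio of −0.66. The list median was −0.25 in PC3 and −0.016 in DU145.

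Among 11 IKK and activating kinases, IKBKE, an IKK-related kinase that NF-κB also induces, was lower past 2-fold in both lines. It was at 1.21 in PC3-shC and 0.324 in PC3-shESS2 cells (log2 ratio −1.91), and at 0.101 in DU145-shC and 0.0495 in DU145-shESS2 cells (−1.03). The DU145 levels are close to background. The other kinases, which include CHUK, IKBKB and IKBKG, the core of the IKK complex, were within 2-fold in both lines by their brighter probe, and the list median was −0.025 in PC3 and −0.029 in DU145. The second probe of TAB3, an adaptor of the kinase MAP3K7, was at 1.02 in PC3.

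Of 15 adaptors and ubiquitin ligases, 1 was past 2-fold in PC3 and 0 in DU145. That 1 was TRAF1, an adaptor that NF-κB induces, which was named after its value was seen because PC3-shC cells did not hold it well above background. Its scaled signal of 0.196 with knockdown in PC3 was at least 5.77-fold higher than with shC, and at 0.305 and 0.226 in DU145 (log2 ratio −0.43). The list median was −0.072 in PC3 and −0.24 in DU145.

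Of 14 receptors, 11 could be compared in each line by the probe that stands for the gene. TNFRSF1B was dim by that probe, and its other probe had a log2 ratio of −0.59 in DU145. In PC3, TLR3, a sensor of double-stranded RNA, was lower (0.913 with shC and 0.342 with shESS2, log2 ratio −1.41). The interleukin-1 receptor IL1R1 (0.0631 and 0.274, log2 ratio 2.12) and TNFRSF11A, the receptor RANK (0.322 and 0.679, log2 ratio 1.08), were higher. The IL1R1 level in PC3-shC cells is close to background, and its other probe was dim on both PC3 arrays. None of the 11 was past 2-fold in DU145. The median was −0.10 in PC3 and −0.086 in DU145.

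Of 14 other negative regulators, 3 were past 2-fold in PC3. ZC3H12A, which encodes the ribonuclease Regnase-1 that degrades inflammatory mRNA, was at 14.9 in PC3-shC and 2.69 in PC3-shESS2 cells, 5.55-fold lower (log2 ratio −2.47), further below 0 than any of the 5 feedback genes in PC3. CYLD, a deubiquitinase, was at 0.374 and 0.183 (−1.03), and PDLIM2, which promotes the degradation of nuclear p65, was at 1.25 and 3.03 (1.27). In DU145, 13 of the list could be compared and 0 were past 2-fold. ZC3H12A was at 2.13 and 1.26 there, a ratio of −0.76. The list median was −0.19 in PC3 and 0.078 in DU145. Over these 5 lists of 60 genes, 9 of 57 compared were past 2-fold in PC3 and 1 of 56 in DU145, with medians of −0.12 and −0.059, beside 7.75% and 4.83% of all genes past 2-fold.

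Effector targets of NF-κB, such as cytokines and survival genes, had medians below those of all genes in both lines. Of 23 listed, 17 were lower in PC3 in any size, beside 55.7% of all genes, and 16 of 22 compared in DU145, beside 52.8%. Past 2-fold, 11 were lower and 1 was higher in PC3, beside 3.87% and 3.88% of all genes, with a list median log2 ratio of −0.81. In DU145, 9 were lower and 2 higher, beside 2.47% and 2.36%, with a list median of −0.75. This list holds genes already known to be lower in PC3 when it was written. CCL20, a chemokine, was at 36.6 and 3.90 in PC3 (−3.23) and at 1.20 and 0.179 in DU145 (−2.75), and LCN2, an iron-binding protein, at 154 and 16.1 (−3.25) and at 1.15 and 0.196 (−2.55).

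LTB, a cytokine of the TNF family that signals to the non-canonical pathway, had log2 ratios of −3.32 in PC3 and −5.27 in DU145. IL1B was at 166.5 and 10.9 in PC3 (−3.93), and was not well above background on either DU145 array. CXCL1 had ratios of −1.56 in PC3 and −2.90 in DU145. The 2 probes of BCL2A1, a survival gene, differed in size in both lines, at −0.097 for the brighter and −3.65 for the other in PC3 and at −0.46 and −3.95 in DU145, so that whether it lies past 2-fold rests on the choice of probe. IL6 was higher in both lines, by 2.62 in PC3 and 2.48 in DU145 on the log2 scale. The other gene higher past 2-fold in DU145, PTGS2, was not well above background in DU145-shC cells and was at least 2.46-fold higher with knockdown. In PC3, PTGS2 was well above background on both arrays and went the other way, with a log2 ratio of −2.24. PTGS2 was named after its value was seen. NFKBIA and NFKBIZ lay on the side of most effector targets in both lines, whereas TNFAIP3, BIRC3 and NFKBIE did so in DU145 and lay on the other side in PC3. The effector list was written with genes already known to be lower in PC3, so this is a description.

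**Figure D4:**
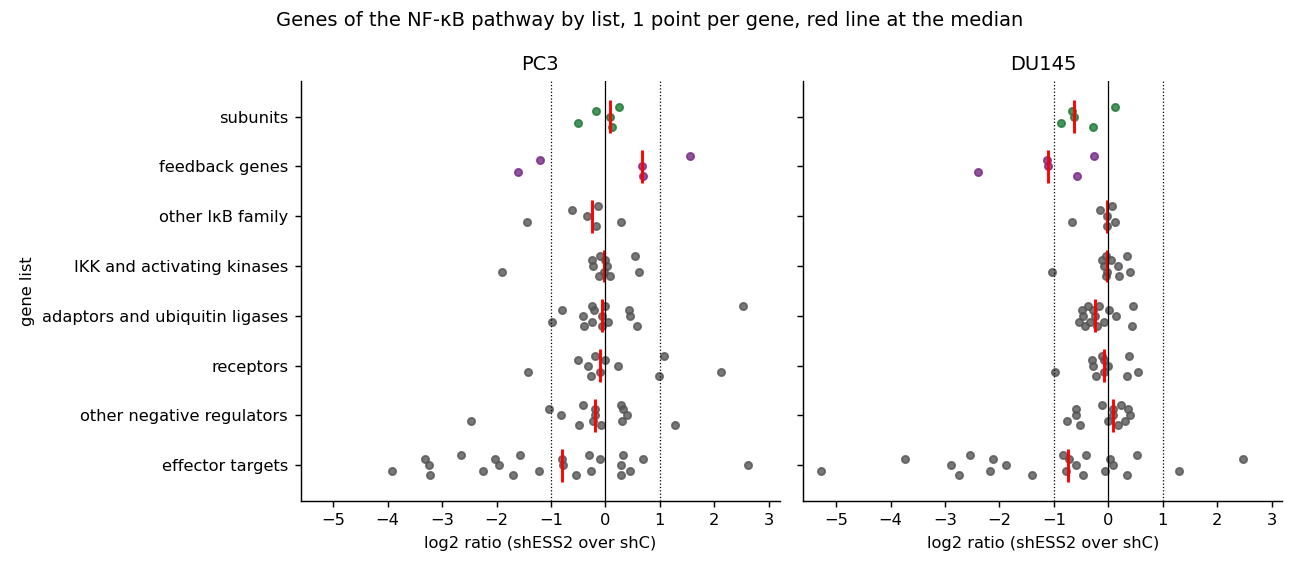
Log2 ratio of shESS2 over shC in PC3 (left) and DU145 (right) for each gene compared, by list, with the median of each list as a red line and 2-fold as dotted lines. A gene dim on 1 array is drawn at its bound. Of the 8 lists drawn, which leave out the cell type markers, the effector targets reach furthest below −1 in both lines, with medians of −0.81 and −0.75, while the subunits stay within 2-fold.

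The directions of the 10 genes were compared across settings of the processing. Under 9 other settings (scaling, background correction, filters, probe and spot rules and the authors' own scaled values), the sign changed once, for RELA in PC3. Not all of these settings could move the values. The filters and the plain signal of dim spots could not, since all 10 genes were well above background on all 4 arrays. The mean of probes could move only RELA, and kept outlier spots only NFKBIA. Median scaling, quantile normalization, normexp and the authors' scaled values could move every gene. NFKBIA lay between −1.30 and −1.11 in PC3, and NFKBIZ between −1.72 and −1.16. The same 3 genes lay past 2-fold in PC3 under all 9. In DU145, TNFAIP3 stayed past 2-fold under all 9, while NFKBIA and BIRC3 each fell short under 1 of them.

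**Figure D5:**
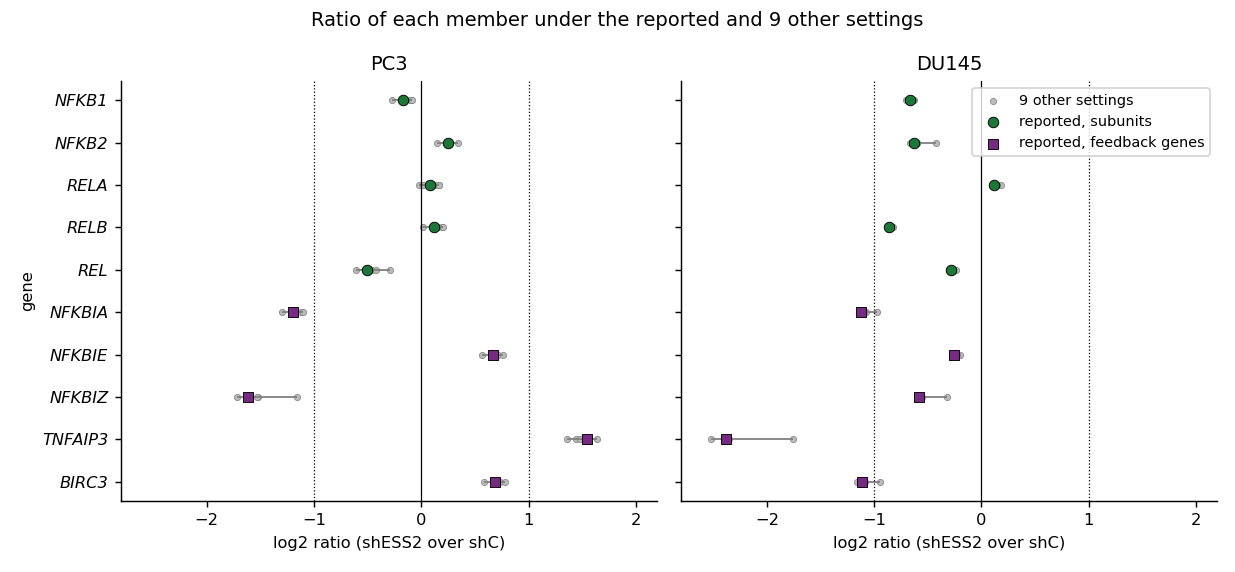
Log2 ratio of shESS2 over shC of each of the 10 genes in PC3 (left) and DU145 (right) as reported (coloured) and under 9 other settings (grey), with a line over their range and dotted lines at 2-fold. TNFAIP3 ranges from 1.36 to 1.64 in PC3 and from −2.52 to −1.76 in DU145, on opposite sides of 0 throughout.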

How the data were processed

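RNA from PC3-shC, PC3-shESS2, DU145-shC and DU145-shESS2 cells was measured on 4 one-colour Agilent arrays, 1 per condition, from 0.1 µg of total RNA. The authors deposited the scanner output, in which the intensity of each spot is background-subtracted and not scaled between arrays. Per the file headers it came from Agilent Feature Extraction 12.1.0.3 for PC3 and 12.0.3.1 for DU145, with the array design on hg19. The deposited 0 or 1 flags for background and outliers were used as given. A deposited table of the authors' scaled intensity values equals the processed signal times 1 constant per array, and served as an alternative. GeneSpring is named in the methods of the study without settings.

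From the deposited intensity, log2 values were taken and the 75th percentile of the non-control spots of each array was subtracted. Control spots and outlier spots were left out, which removed 5 probes. Spots of a probe were averaged, and the probe with the highest mean stood for a gene. Accessions were matched to RefSeq symbols for 35077 of 58196 probes. The annotation release in the PC3 files is newer than that in the DU145 files, and both were used for the match. A gene was compared where well above background on at least 1 array of the line, and a dim value was raised to the lowest signal well above background on its array unless already above that; a fold against it is given as "at least". Genes dim on both arrays of a line got no fold.

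No test was made within a line. Across lines, limma 3.58.1 (R 4.3.3) was fitted to genes above background on 2 or more arrays, with the line as a block and Benjamini-Hochberg adjustment at 0.05. The number of arrays limits the precision. Other steps used numpy 2.4.6, pandas 2.3.3, matplotlib 3.10.9 and scipy 1.17.1 under Python 3.11.15. Tested on simulated data that carry noise between spots only, the PC3 comparison recovered 200 of 200 changed genes over 16134 genes with 0 false calls, the DU145 comparison 200 of 200 over 16306 with 0, and the limma fit 200 of 200 over 17473 with 12. Every planted change was beyond 2-fold, was the same in both lines and lay in a gene picked to be bright. The simulation therefore checks the code, and gives no error rate for the real arrays.

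The members and lists were chosen with earlier results of these data known. Named genes are the 10 members, ESS2, from each list at most the 4 of largest ratio per line among genes past 2-fold and well above background on both arrays, and the 5 genes nearest to NFKBIA in their 4 centred log2 values. Outside this rule, TRAF1, PTGS2, IL6, BCL2A1, TAB3, CHUK, IKBKB, IKBKG, TNFRSF1B and the marker genes were named after their values were seen. Alternatives were the authors' scaled values, quantile normalization, scaling to the median, normexp with an offset of 50 on the median spot signal, outlier spots kept, the mean of probes, plain signal of dim spots, a filter on both arrays, no filter at all and, for limma, no block. Those for the control comparison were added after seeing the data. RT-qPCR, ChIP-qPCR, reporter and protein assays of the study were not used here. Some marker genes are not reported here.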

Additional observations from a re-analysis of the deposited data

Results flagged for a closer look

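For 5 of the 10 genes the knockdown ratio had opposite directions in the 2 cell lines, higher in PC3 and lower in DU145, on the single array of each condition. Over all genes compared in both lines, 43% lay in opposite directions and 19.7% were higher in PC3 and lower in DU145. The PC3 log2 ratio minus the DU145 log2 ratio was 3.93 for TNFAIP3, 1.8 for BIRC3, 0.979 for RELB, 0.928 for NFKBIE and 0.873 for NFKB2. The difference was not tested for any of them, since each condition has 1 array. In PC3 the ratios of RELB (0.12) and NFKB2 (0.25) were within the largest spread between spots of 1 probe at their level, so that their direction there is uncertain. Line, slide and software version cannot be told apart.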

How the results depend on the processing

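The PC3 count of 3 of 10 genes past 2-fold was the same under all 9 alternatives, and the DU145 count of 3 was 2 with quantile normalization (NFKBIA at −0.98) and 2 with normexp (BIRC3 at −0.94). The DU145 feedback median minus the subunit median moved from −0.49 to −0.32 with quantile normalization. The count of members past 2-fold between PC3-shC and DU145-shC moved from 1 to 3 with median scaling, 3 with quantile normalization and 6 with the authors' scaled values; the cause was not tested. Over all genes, the count past 2-fold in PC3 moved from 1299 to 571 with normexp and 2624 with no filter on dim genes, and in DU145 from 813 to 216 and 2020, as dim genes enter or are drawn together. With median scaling the median of all PC3 genes shifted by −0.10, and 511 genes were higher and 803 lower past 2-fold, against 650 and 649 as reported; with the authors' scaled values these were 792 and 535. In DU145, normexp gave 139 higher and 77 lower, against 397 and 416. Of 180 values of single genes under the alternatives, 148 moved by less than the spread between spots and 32 by more. None of the values past 2-fold reversed. All 32 came from median scaling, quantile normalization, normexp or the authors' scaled values. The remaining settings could change few or none of the 10 genes, so their values are among the 148 largely by construction. Without the cell line as a block limma called 0 genes at an adjusted p of 0.05 and 23 at an unadjusted p under 0.05, 1 of them a member. The cell line as a block is the pairing used in the limma fit. By replicate number, no paired analysis was possible because each group has 1 array. No array was left out, since a line without one of its arrays has no ratio and the blocked fit then has no residual degree of freedom. Genes near background have only a bound, and the single spots of 9 of the 10 genes give no error of their own.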

Other observations

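The 5 genes whose values on the 4 arrays lay nearest to those of NFKBIA, after centring each gene and by Euclidean distance on the log2 scale over 14685 genes, were PSMB8-AS1 (distance 0.26), LIX1L-AS1 (0.32), C6orf120 (0.34), CBX6 (0.34) and CD163L1 (0.36). With 4 arrays such a distance describes the pattern only. PSMB8-AS1 had log2 ratios of −1.04 in PC3 and −1.21 in DU145.

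The 4 members that were lower in both lines, NFKB1, REL, NFKBIA and NFKBIZ, are the 4, of 8 members with a promoter entry, whose entries hold the letters GGGAATTTCC. This was noticed after the values were seen, and it rests on NFKB1 in PC3, whose ratio of −0.17 was −0.082 with the authors' scaled values, within the largest spread between spots at its level (0.15). Over all genes 33.3% were lower in both lines. Among 22 further genes with these letters in a promoter entry that were compared in both lines, 12 were lower in both (54.5%), beside 4032 of 12016 genes with an entry (33.6%). For the other letters found in members it was 15 of 27 genes (55.6%) for GGGAAATTCC, which in REL overlaps the match to GGGAATTTCC, and 16 of 29 (55.2%) for GGGACTTTCC, found in TNFAIP3 and NFKB2, which were not lower in both lines. It was 6 of 14 (42.9%) for GGGGAATTCC, 14 of 39 (35.9%) for GGGGCTTTCC and 5 of 17 (29.4%) for GGGGATTTCC. For GGGNNNTTCC as a whole it was 380 of 1179 genes (32.2%). No test was made of these counts, and the letters are not a measurement of binding.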
